A study of Homo sapiens with 12 samples.

Results

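The 31 genes described here make the proteins that copy DNA in S phase and the enzymes that supply its building blocks. They were taken by name from a list of replication, nucleotide-supply and origin-licensing genes, and all 31 were measured among the 19775 genes of the array. Each gene is read by the probe set (a group of short probes for one transcript) with the highest mean over all arrays. The samples were 12 Affymetrix arrays of U-87 MG, a long-established cell line from a human glioma. All cells carried a stably transfected hairpin RNA and were harvested after 16 h of treatment. The 4 groups of 3 arrays each were shp105 cells with 100 uM temozolomide (TMZ), shp105 cells with the vehicle DMSO, shControl cells with TMZ and shControl cells with DMSO. The hairpin in shp105 cells targets p105, the product of NFKB1 and precursor of an NF-kB subunit, while shControl cells carry a control hairpin. TMZ is a DNA-methylating drug given against glioma. The series addresses the effect of the drug with NF-kB intact or reduced. The labels do not say whether a line is 1 clone or a pool, so a difference between the lines cannot be told apart from a difference between 2 cell cultures with other histories. The replicates are called biological, but whether they came from separate cultures is not stated, and p-values then measure only the spread between these arrays.

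A cell prepares for replication in G1, when CDC6 and CDT1 load the MCM helicase onto origins, a step called licensing. The kinase CDC7 with its partner DBF4 and the cyclin E kinase then switch the helicase on by adding CDC45 and the GINS complex, after which polymerases, the sliding clamp PCNA and its RFC loader copy the DNA. Many of these genes are switched on at the G1/S border by E2F factors, which are held back by the retinoblastoma family. TMZ methylates DNA, and p53, which U-87 MG cells are known to carry in wild-type form, answers DNA damage by raising the cyclin-kinase inhibitor CDKN1A.

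The deposited values are log2 levels. NFKB1, the targeted gene, stood at 7.16 (SD 0.05) in shp105 cells with TMZ, 7.20 (SD 0.06) in shp105 cells with DMSO, 7.41 (SD 0.11) in shControl cells with TMZ and 7.32 (SD 0.09) in shControl cells with DMSO. The difference shp105 minus shControl was called under TMZ (-0.25, adjusted p = 0.0204) and not under DMSO (-0.12, adjusted p = 0.260). Of the markers of this mesenchymal glioma line VIM, S100A6, CD44 and FN1 were bright (12.44 to 14.84 on any array), NES was dim (4.45 to 5.77), and GFAP, the astrocyte filament, was dim as well (4.94 to 5.36). Leukocyte, epithelial, endothelial and neuronal markers lay between 2.66 and 6.14, and CDKN2A, which the line is known to have lost, between 5.28 and 5.89. Probe sets for sequences that human cells lack averaged 2.66 to 4.06. Median levels of the arrays were alike, 5.04 to 5.09, but bacterial spike-ins and the gap between GAPDH's 3' and 5' probe sets differed between the lines, with values given beside the line results below.

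Most replication genes changed little in any comparison. Their values ran from 6.07 to 12.75, above the absent-sequence controls on every array. The lowest were those of CLSPN, 6.07 to 6.83, close to PECAM1, an endothelial marker, at 5.7 to 6.14. Over the 124 combinations of gene and group, the SD of the 3 arrays had a median of 0.05 and a maximum of 0.21. Averaged over the 31 genes after centring each on its own mean, the level was -0.02 (SD 0.03) in shp105 cells with TMZ, -0.09 (SD 0.02) in shp105 cells with DMSO, 0.06 (SD 0.02) in shControl cells with TMZ and 0.05 (SD 0.02) in shControl cells with DMSO. The shp105 arrays with DMSO were the lowest: on them only 3, 9 and 7 of the 31 genes were above their own mean. On the shp105 arrays with TMZ it was 10, 11 and 16 genes, on the shControl arrays with TMZ 21, 23 and 20, and on the shControl arrays with DMSO 25, 18 and 25.

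**Figure D1:**
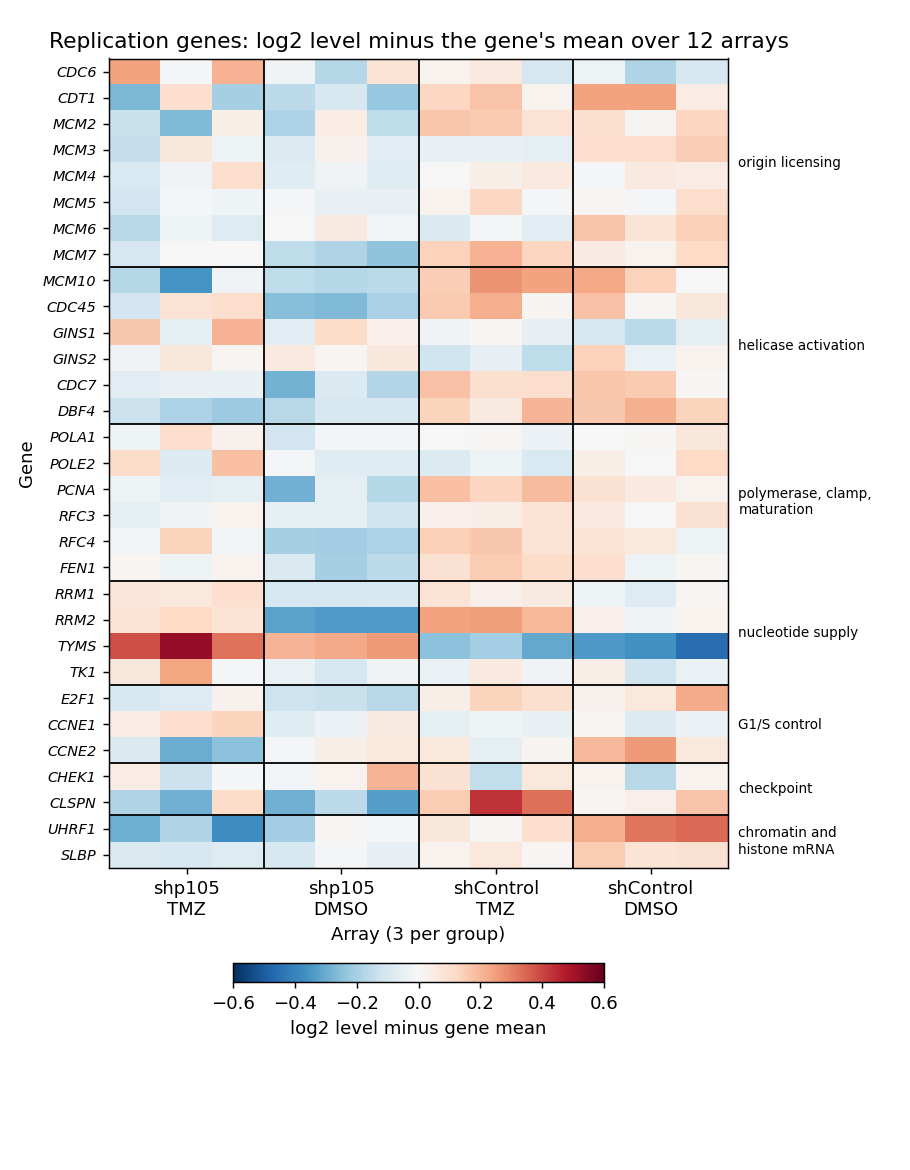
Log2 level of each of the 31 replication genes (rows, grouped by role) on each of the 12 arrays (columns, 3 per group), minus the gene's own mean. Red is above and blue below the gene's mean. The 3 columns of shp105 cells with DMSO are mostly blue, with 3, 9 and 7 of 31 genes above their mean, and TYMS runs the other way, red in all shp105 arrays and blue in all shControl arrays.

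Without the drug, part of the replication genes were lower in shp105 than in shControl cells. Under DMSO, 14 of the 31 were lower and 1 was higher, which left 16 uncalled (limma, adjusted p under 0.05 over all genes, which is what "called" means here). Of all 19775 genes, 11.6% were called lower and 8.34% higher (19.9% either way) in that comparison, against 45.2% of the 31 called lower. Of the called genes of the whole array 41.9% were higher, and 54.6% with each array centred on its median. The median difference, shp105 minus shControl, was -0.16 for the replication genes and -0.02 for all genes. The changes were small: the called genes other than TYMS ran from -0.36 to -0.16 on the log2 scale, which is 0.777 to 0.895 times the shControl level. Fewer cells in S phase and less of each RNA per cell cannot be told apart in RNA of whole cultures.

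UHRF1, which guides the maintenance of DNA methylation at the fork, had the largest decrease. It stood at 10.15, 10.37 and 10.35 in shp105 cells with DMSO, against 10.58, 10.68 and 10.70 in shControl cells with DMSO (difference -0.36, SE 0.07, adjusted p = 0.00363). The lowest shControl array was above the highest shp105 array. SLBP, which binds the end of histone mRNA and is needed for histone supply, differed by -0.16 (SE 0.05, adjusted p = 0.0339).

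Of the genes that load the helicase, 2 of 8 were lower. CDT1, a loading factor, was at 8.40, 8.46 and 8.33 in shp105 cells with DMSO, against 8.80, 8.80 and 8.60 in shControl cells with DMSO (-0.34, SE 0.10, adjusted p = 0.0270). MCM7, a subunit of the helicase ring, was at 9.61, 9.58 and 9.52 in shp105 cells, against 9.81, 9.78 and 9.88 in shControl cells (-0.25, SE 0.05, adjusted p = 0.00493). Neither pair of groups overlapped. The other subunits did not pass, with MCM3 at -0.16 (adjusted p = 0.0960) the nearest to it, and the loading factor CDC6 was at 0.07 (adjusted p = 0.664). The other ring subunits MCM2, MCM4, MCM5 and MCM6 had values from -0.18 to -0.07.

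Of the 6 genes that switch the helicase on, 4 were lower. CDC45, which joins the active helicase, was at 8.34, 8.33 and 8.40 in shp105 cells with DMSO, against 8.77, 8.60 and 8.66 in shControl cells with DMSO (-0.32, SE 0.07, adjusted p = 0.0102). The kinase CDC7 was at 7.57, 7.77 and 7.68 in shp105 cells, against 8.02, 8.01 and 7.86 in shControl cells (-0.29, SE 0.06, adjusted p = 0.00656). Its activating partner DBF4 was at 10.32, 10.39 and 10.39 in shp105 cells, against 10.65, 10.70 and 10.62 in shControl cells (-0.29, SE 0.05, adjusted p = 0.00254). Both parts of this kinase were lower by about the same amount, and none of these groups overlapped. MCM10, which helps to activate the loaded helicase, differed by -0.29 (adjusted p = 0.0297), while the GINS subunits GINS1 (0.13, adjusted p = 0.298) and GINS2 (0.00, adjusted p = 0.984) did not pass.

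Among the genes that copy DNA, PCNA, the sliding clamp, was at 11.27, 11.50 and 11.39 in shp105 cells with DMSO, against 11.65, 11.62 and 11.58 in shControl cells with DMSO (-0.23, SE 0.06, adjusted p = 0.0190). RFC4, a subunit of the clamp loader, was at 10.80, 10.79 and 10.81 in shp105 cells, against 11.08, 11.06 and 10.97 in shControl cells (-0.24, SE 0.06, adjusted p = 0.0125). FEN1, the flap nuclease that trims Okazaki fragments, differed by -0.18 (SE 0.05, adjusted p = 0.0377). The shp105 arrays were below all shControl arrays for each of these 3 genes. The polymerase subunits POLA1 (-0.07, adjusted p = 0.451) and POLE2 (-0.10, adjusted p = 0.382) and the loader subunit RFC3 (-0.13, adjusted p = 0.0921) did not pass. Of the regulators, the transcription factor E2F1 (-0.25, SE 0.06, adjusted p = 0.0134) and the checkpoint adaptor CLSPN (-0.33, SE 0.11, adjusted p = 0.0444) were lower. The cyclins CCNE1 (0.02, adjusted p = 0.834) and CCNE2 (-0.14, adjusted p = 0.204) and the checkpoint kinase CHEK1 (0.11, adjusted p = 0.460) did not pass.

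Enzymes of nucleotide supply went both ways. RRM2, the small subunit of ribonucleotide reductase whose level follows the cell cycle, was at 12.18, 12.16 and 12.16 in shp105 cells with DMSO, against 12.53, 12.48 and 12.52 in shControl cells with DMSO (-0.34, SE 0.04, adjusted p = 0.000180). TYMS, the enzyme that makes thymidylate from deoxyuridylate, was the single higher gene, at 12.38, 12.40 and 12.43 in shp105 cells, against 11.83, 11.81 and 11.72 in shControl cells (0.61, SE 0.06, adjusted p = 2.15e-05). That is 1.53 times the shControl level. RRM1, the large reductase subunit (-0.07, adjusted p = 0.325), and the salvage kinase TK1 (-0.01, adjusted p = 0.930) did not pass.

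**Figure D2:**
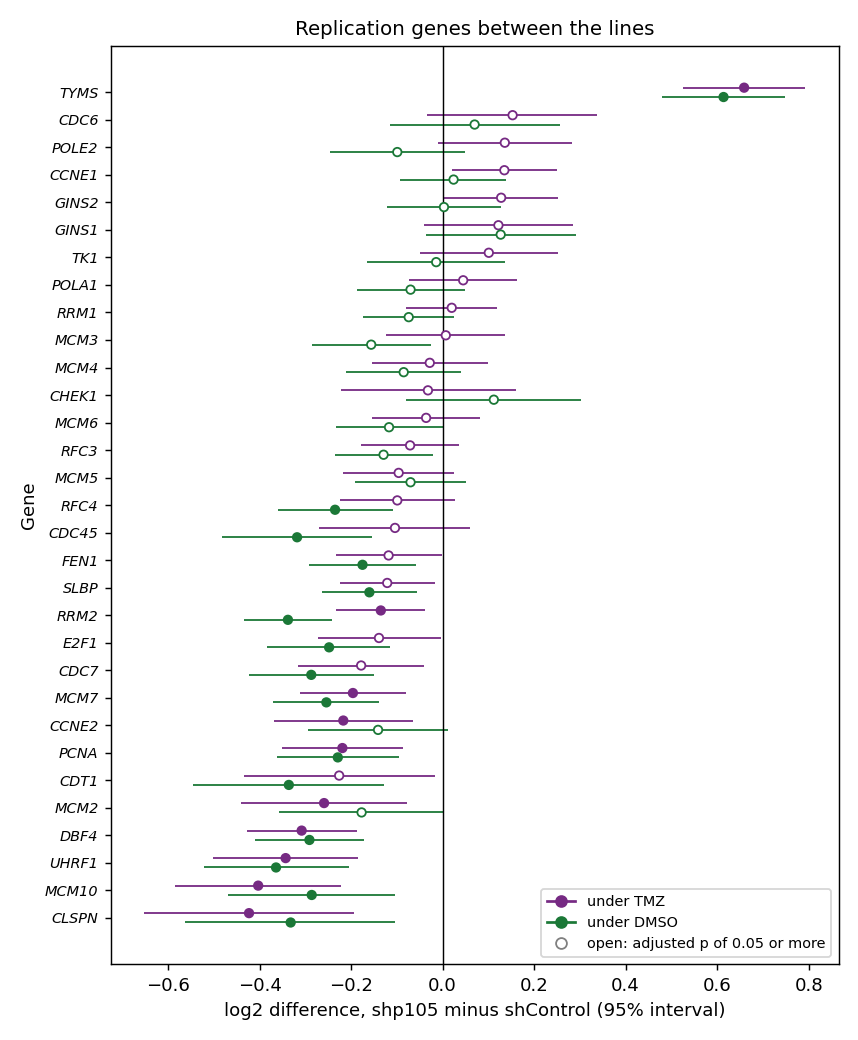
Log2 difference, shp105 minus shControl, of each of the 31 genes under TMZ (purple) and under DMSO (green), with 95% intervals of the limma fit; filled points are called, open points are not. TYMS stands alone on the right at 0.66 under TMZ and 0.61 under DMSO, and most other genes lie left of 0.

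Under TMZ, of the 31 genes 9 were lower in shp105 than in shControl cells, and 1 was higher, with 21 uncalled, where 11% of all genes were called lower and 10.1% higher (21.1% either way). The median difference was -0.10 for the replication genes and -0.01 for all genes. Lower under both treatments were 7 genes, MCM7, MCM10, DBF4, PCNA, RRM2, CLSPN and UHRF1, which is 7 of the 9 called under TMZ and 7 of the 14 called under DMSO. TYMS was again the higher one. Both comparisons set the same lines against each other. The share of all genes called lower under both treatments is not given here, so the overlap of 7 genes is not compared with all genes.

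DBF4 was at 10.36, 10.30 and 10.27 in shp105 cells with TMZ, against 10.62, 10.54 and 10.69 in shControl cells with TMZ (-0.31, SE 0.05, adjusted p = 0.00167). UHRF1 was at 10.07, 10.18 and 9.99 in shp105 cells with TMZ, against 10.43, 10.37 and 10.46 in shControl cells with TMZ (-0.34, SE 0.07, adjusted p = 0.00497). Neither gene's groups overlapped, and their differences were close to those under DMSO. MCM10 was at 8.45, 8.26 and 8.60 in shp105 cells with TMZ, against 8.77, 8.89 and 8.86 in shControl cells with TMZ (-0.40, SE 0.08, adjusted p = 0.00426). CLSPN was at 6.22, 6.11 and 6.51 in shp105 cells with TMZ, against 6.55, 6.83 and 6.73 in shControl cells with TMZ (-0.42, SE 0.11, adjusted p = 0.0129). The other 2 MCM10 probe sets were at -0.14 and -0.04 under TMZ, and with probe sets averaged the MCM10 call was lost at -0.19. Both genes had shp105 arrays that spread over more than 0.3 on the log2 scale and still lay below the shControl arrays.

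PCNA (-0.22, adjusted p = 0.0226) and MCM7 (-0.20, adjusted p = 0.0204) had differences near those under DMSO. Called under TMZ but not DMSO were MCM2, another ring subunit (-0.26, adjusted p = 0.0444), and CCNE2 (-0.22, adjusted p = 0.0460), although the dimmer CCNE2 probe set was at -0.31 under TMZ and -0.35 under DMSO. By their brightest probe sets, CDT1, CDC45, CDC7, RFC4, FEN1, E2F1 and SLBP were called under DMSO only. In a limma fit over all probe sets, the dimmer ones of CDT1 (-0.29, adjusted p = 0.0266) and E2F1 (-0.26, adjusted p = 0.0213) were lower under TMZ too. The dimmer FEN1 probe set (-0.20, adjusted p = 0.0737) did not pass there. For CDC45 the difference was -0.10 (adjusted p = 0.389) and for RFC4 -0.10 (adjusted p = 0.272) under TMZ. CDT1 (-0.23), CDC7 (-0.18), E2F1 (-0.14), SLBP (-0.12) and FEN1 (-0.12) were negative there too, with adjusted p from 0.0672 to 0.153. CCNE1 (0.13, adjusted p = 0.0951) and GINS2 (0.13, adjusted p = 0.148) were positive without passing, and CCNE1 was at -0.001 with probe sets averaged. TYMS was at 12.56, 12.70 and 12.50 in shp105 cells with TMZ, against 11.93, 11.97 and 11.87 in shControl cells with TMZ (0.66, SE 0.06, adjusted p = 1.23e-05). Every shp105 array was above every shControl array for TYMS under either treatment.

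The groups of 3 arrays did not overlap for 22 lower genes and 1 higher gene of the 31 under DMSO, where 20.8% of all genes were lower and 15.1% higher without overlap. Under TMZ it was 15 lower and 3 higher genes, against 18.5% and 17.2% of all genes. Averaged over both treatments, 6 arrays against 6, a comparison added after these values had been seen, 17 of the 31 were lower and 1 was higher, where 16.7% of all genes were lower and 13.4% higher (30.1% either way). RFC3 (-0.10, adjusted p = 0.0469) joined the genes called under either treatment.

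The line differences stand beside differences between the arrays. Spike-ins averaged 11.32 in shp105 cells with TMZ, against 10.95 in shControl cells with TMZ, and 11.13 in shp105 cells with DMSO, against 10.63 in shControl cells with DMSO (exact permutation p = 0.1 in both cases; no smaller value is possible with 3 arrays against 3). The gap between GAPDH's 3' and 5' probe sets (log2, larger with shorter cDNA) was 0.40 in shp105 cells with TMZ, against 0.30 in shControl cells with TMZ, and 0.36 in shp105 cells with DMSO, against 0.25 in shControl cells with DMSO (exact permutation p = 0.1 each). With the spike-ins as covariate, 0 of the 15 calls under DMSO were kept and 1 of the 10 under TMZ, TYMS at 0.60 (adjusted p = 0.0167). All 15 genes called under DMSO kept their sign in that fit, and 9 of the 10 under TMZ did, the exception being MCM2. Over the 31 genes, the median difference under DMSO was -0.10 with the covariate and -0.16 without it, and the median standard error was 0.145 with it and 0.061 without it. The same gap for ACTB was 3.06 in shp105 cells with TMZ, against 2.85 in shControl cells with TMZ (exact permutation p = 0.1), and 3.07 in shp105 cells with DMSO, against 3.02 in shControl cells with DMSO (exact permutation p = 0.6). The part of these gaps in the result was not tested.

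Single arrays also bore on the number of calls, among all genes too. Of all genes, 3937 were called in either direction under DMSO, and 3042 to 4171 with 1 array left out. Under TMZ it was 4166, and 3219 to 4059. With centred arrays 1769 of all genes were lower under DMSO, against 2287 without centring. The share called lower with an array left out is not given here, so the counts below are not compared with all genes. Under DMSO the lower replication genes numbered 7 without shControl_DMSO replicate 1 and 9 without shControl_DMSO replicate 2. They numbered 9 without shp105_DMSO replicate 1, 8 without shp105_DMSO replicate 3 and 9 when each array was centred on its own median. Under TMZ they numbered 4 without shControl_TMZ replicate 1, 4 without shControl_TMZ replicate 2, 5 without shControl_TMZ replicate 3, 5 without shp105_TMZ replicate 2 and 4 when only the compared groups were fitted. In 20 alternatives that leave out the stricter threshold and the covariate, MCM7, CDC45, CDC7, DBF4, RRM2, TYMS and UHRF1 never lost their DMSO call, and DBF4, TYMS and UHRF1 never lost their TMZ call. By their brightest probe sets, RRM2 and CCNE2 were the least certain under TMZ, RRM2 with a difference of -0.135 and an adjusted p of 0.0498. In a limma fit over all probe sets, RRM2's other probe set was at -0.41 under TMZ (adjusted p = 0.00226). CCNE2's other probe set was at -0.31 there (adjusted p = 0.0775).

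Since most of these genes are known E2F targets, their promoters were searched for the E2F motif, with the sequences taken from RefSeq (GRCh38.p14). The letters searched were TTTCCCGC, TTTGGCGC, TTTCGCGC and TTTGCCGC on both strands, in windows of 250 bases before to 50 after a start site, and copies may overlap each other. Of the 31 genes 28 had a window, and 17 of these 28 (60.7%) held a copy in at least 1 window. Over all 27305 genes with a window the share was 3.99%. Of the 15 genes called lower under either treatment that had a window, 8 held a copy, and of the 12 called under neither, 8 did. TYMS, which was higher, held one too.

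A second motif, an NF-kB pattern of GGGA, any 3 bases and then TCC, was searched the same way because the hairpin targets an NF-kB gene. It stood in the windows of 5 of the 28 genes (17.9%), against 6.2% of all genes. The 5 were CHEK1, MCM3, MCM7, MCM10 and RRM2. Of the 14 genes lower under DMSO 3 held it, and of the 12 called under neither treatment 2 did.

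The 120 bases just before the start site are shown for 6 genes, 5' to 3' on the gene's own strand, with the E2F letters in capitals. Of these, RFC3 was not called under either treatment by its brightest probe set. Its dimmer probe sets were at -0.62 and -0.24 under DMSO and at -0.49 and -0.38 under TMZ. MCM7, PCNA and E2F1 were lower in shp105 cells, TYMS was higher, and RRM2 was lower and holds no E2F copy in its windows. They lie at chr7:100101398-100101517 (minus strand) for MCM7, chr20:5126623-5126742 (minus) for PCNA, chr20:33686386-33686505 (minus) for E2F1, chr13:33818029-33818148 (plus) for RFC3, chr18:657533-657652 (plus) for TYMS and chr2:10122448-10122567 (plus) for RRM2.
MCM7: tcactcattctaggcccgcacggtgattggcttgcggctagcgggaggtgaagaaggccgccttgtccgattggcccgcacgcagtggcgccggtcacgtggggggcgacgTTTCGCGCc
PCNA: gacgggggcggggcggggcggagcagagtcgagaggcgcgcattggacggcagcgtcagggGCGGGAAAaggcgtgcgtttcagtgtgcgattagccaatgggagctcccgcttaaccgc
E2F1: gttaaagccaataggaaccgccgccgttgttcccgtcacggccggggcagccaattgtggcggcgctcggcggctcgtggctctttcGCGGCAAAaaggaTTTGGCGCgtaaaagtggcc
RFC3: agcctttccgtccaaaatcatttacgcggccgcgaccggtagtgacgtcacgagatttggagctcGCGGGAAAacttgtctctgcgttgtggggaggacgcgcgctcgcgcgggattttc
TYMS: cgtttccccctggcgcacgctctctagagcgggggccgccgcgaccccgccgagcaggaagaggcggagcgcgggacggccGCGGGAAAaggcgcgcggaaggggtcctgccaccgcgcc
RRM2: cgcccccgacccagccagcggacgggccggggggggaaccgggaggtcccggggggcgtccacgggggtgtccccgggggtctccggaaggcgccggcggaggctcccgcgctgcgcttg
The same GCGGGAAA, the reverse complement of TTTCCCGC, stands 59 bases before the start in PCNA, 55 in RFC3 and 39 in TYMS. By their brightest probe sets within a treatment, these genes were lower, not called and higher, in that order. RFC3 was lower when averaged over both treatments (-0.10, limma adjusted p = 0.0469), and its dimmer probe sets had negative differences. E2F1 carries 2 copies that face opposite ways.

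TMZ for 16 h left nearly all replication genes uncalled. In shp105 cells 1 of the 31 was higher after TMZ, RRM2, and 0 were lower, where 0.647% of all genes were higher and 0.217% lower (0.865% either way). Of all called genes there 74.9% were higher, 41.8% with each array centred on its median and 60.4% with quantile normalization added. In shControl cells 0 were called in either direction, where 0.253% of all genes were higher and 0.116% lower (0.369% either way). CDKN1A, which blocks the G1/S kinases, rose in both lines. It was at 10.91, 10.84 and 10.92 in shp105 cells with TMZ, against 9.97, 9.89 and 10.04 with DMSO (0.92, SE 0.06, adjusted p = 2.80e-05). In shControl cells CDKN1A was at 11.30, 11.24 and 11.22 with TMZ, against 10.38, 10.30 and 10.42 with DMSO (0.88, SE 0.06, adjusted p = 4.47e-05). At an unadjusted p under 0.05, 8 of the 31 were higher and 2 lower in shp105 cells, and 3 were higher and 5 lower in shControl cells, where 16.3% of all genes in shp105 cells and 11% in shControl cells had such a p. With eBayes run with trend and robust fitting, 6 were called higher and 2 lower in shp105 cells, and 1 higher and 2 lower in shControl cells, and that fit called 937 of all 19775 genes in shp105 cells and 358 in shControl cells. The median TMZ response was 0.08 for the replication genes in shp105 cells and 0.02 in shControl cells, and over all genes it was 0.01 in shp105 cells and 0.00 in shControl cells.

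RRM2 had the clearest response. In shp105 cells it was at 12.58, 12.62 and 12.58 with TMZ, against 12.18, 12.16 and 12.16 with DMSO (0.42, SE 0.04, adjusted p = 0.00161), which is 1.34 times the DMSO level. In shControl cells it was at 12.74, 12.75 and 12.70 with TMZ, against 12.53, 12.48 and 12.52 with DMSO (0.22, SE 0.04, adjusted p = 0.0711), which did not pass. The arrays of the 2 treatments did not overlap in either line. RRM2's other probe set did not pass in either line (limma over all probe sets). It was at 0.235 (adjusted p = 0.228) in shp105 cells and 0.274 (adjusted p = 0.271) in shControl cells. The RRM2 call in shp105 cells was lost with the spike-in covariate (0.42, adjusted p = 0.0559) and when the fit held the shp105 arrays alone (adjusted p = 0.0807). RRM2B, the reductase subunit that p53 is known to raise, was at 0.26 (adjusted p = 0.210) in shp105 cells and 0.32 (adjusted p = 0.252) in shControl cells.

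The other genes of nucleotide supply also had positive values in both lines without passing. RRM1 was at 12.40, 12.39 and 12.43 in shp105 cells with TMZ, against 12.22, 12.22 and 12.23 with DMSO (0.18, adjusted p = 0.0791), and it differed by 0.09 (adjusted p = 0.498) in shControl cells. TYMS differed by 0.18 (adjusted p = 0.172) in shp105 cells and 0.14 (adjusted p = 0.423) in shControl cells. RFC4 (0.23, adjusted p = 0.0819) and CDC45 (0.27, adjusted p = 0.116) came next in shp105 cells, followed by MCM7 (0.16), TK1 (0.15) and FEN1 (0.15) with adjusted p from 0.178 to 0.302. In shControl cells CLSPN was at 0.23 (adjusted p = 0.443). The lowest values were those of CCNE2 (-0.24, adjusted p = 0.126) and UHRF1 (-0.21, adjusted p = 0.179) in shp105 cells, and of UHRF1 (-0.23, adjusted p = 0.260) and MCM6 (-0.18, adjusted p = 0.241) in shControl cells, where CCNE2 (-0.16), MCM3 (-0.16) and GINS2 (-0.15) followed with adjusted p from 0.343 to 0.415. The TMZ and DMSO arrays did not overlap for 10 higher and 2 lower replication genes in shp105 cells, where 12.5% of all genes were higher and 7.86% lower without overlap, and for 7 higher and 6 lower in shControl cells, where it was 9.21% and 11.1%. The 95% interval of a single gene's response had a median half-width of 0.13 on the log2 scale, and values up to 0.27 stayed uncalled after adjustment over all genes.

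**Figure D3:**
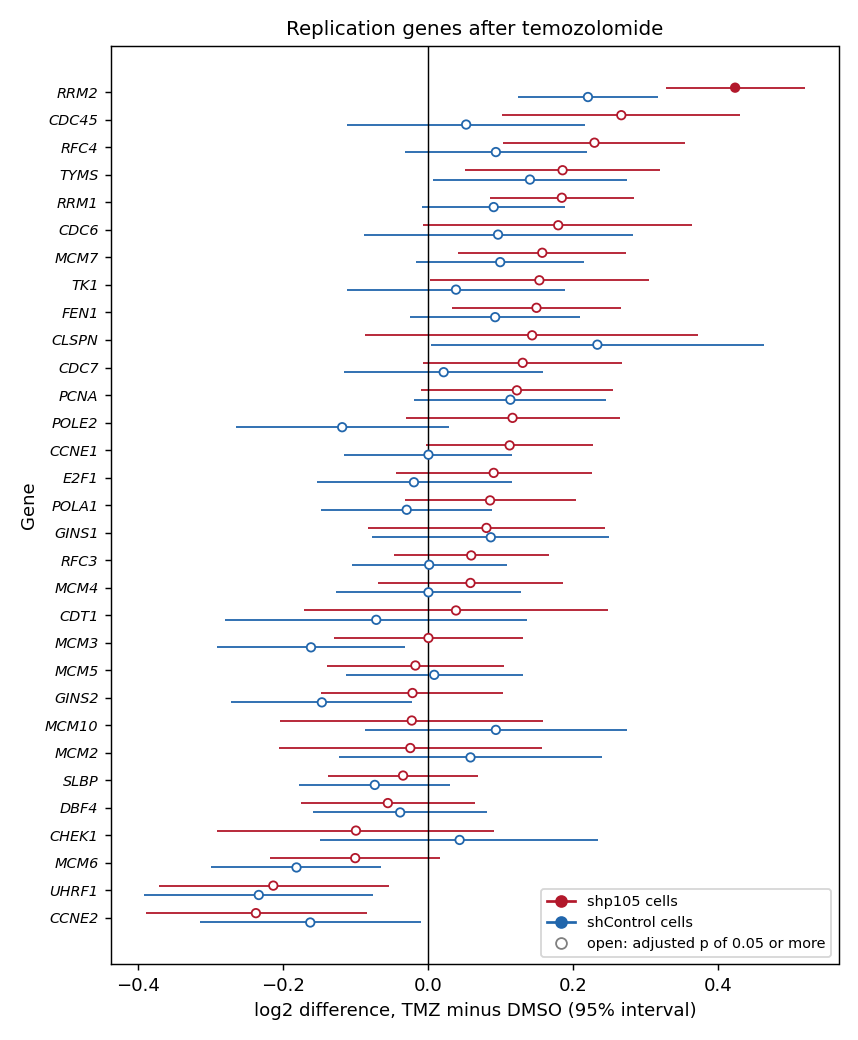
Log2 difference, TMZ minus DMSO, of each of the 31 genes in shp105 cells (red) and in shControl cells (blue), with 95% intervals of the limma fit; filled points are called, open points are not. RRM2 in shp105 cells, at 0.42, is the single filled point, and UHRF1 and CCNE2 lie at the low end in both lines.

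Averaging the response over both lines, 6 arrays against 6, a comparison added after the values had been seen, gave 2 genes higher and 1 lower of the 31, where 1.84% of all genes were higher and 1.53% lower (3.36% either way). Higher were RRM2 (0.32, SE 0.03, adjusted p = 0.000381) and RRM1 (0.14, SE 0.03, adjusted p = 0.0417), the 2 subunits of the reductase, and lower was UHRF1 (-0.22, SE 0.05, adjusted p = 0.0385). CCNE2 was at -0.20 (adjusted p = 0.0504). RRM2B rose by 0.29 (SE 0.07, adjusted p = 0.0428) in that average. Spike-ins averaged 11.32 in shp105 cells with TMZ, against 11.13 with DMSO (exact permutation p = 0.2), and 10.95 in shControl cells with TMZ, against 10.63 with DMSO (exact permutation p = 0.1), and their part in these 2 responses was tested only through the covariate. ACTB's gap between 3' and 5' probe sets was 2.85 in shControl cells with TMZ, against 3.02 with DMSO (exact permutation p = 0.1). In shp105 cells it was 3.06 with TMZ, against 3.07 with DMSO. The part of this gap was not tested.

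No replication gene passed the test of a difference between the TMZ responses of the 2 lines. Of the 31 genes 0 were called by limma, as were 0 of all 19775 genes (0%), and 0 of the 31 with trend and robust fitting. At an unadjusted p under 0.05 there were 2, POLE2 (0.24, SE 0.10, adjusted p = 0.769) and RRM2 (0.20, SE 0.06, adjusted p = 0.677), which is near the 6.4% of all genes with such a p. RRM2's other probe set had the opposite sign (-0.04). The genes with a positive value numbered 23 of 31. All these values share the same 12 arrays. The median half-width of the 95% interval was 0.19 here. A call under DMSO that is missing under TMZ, as for CDC45, is therefore not shown to be a difference between the treatments.

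**Figure D4:**
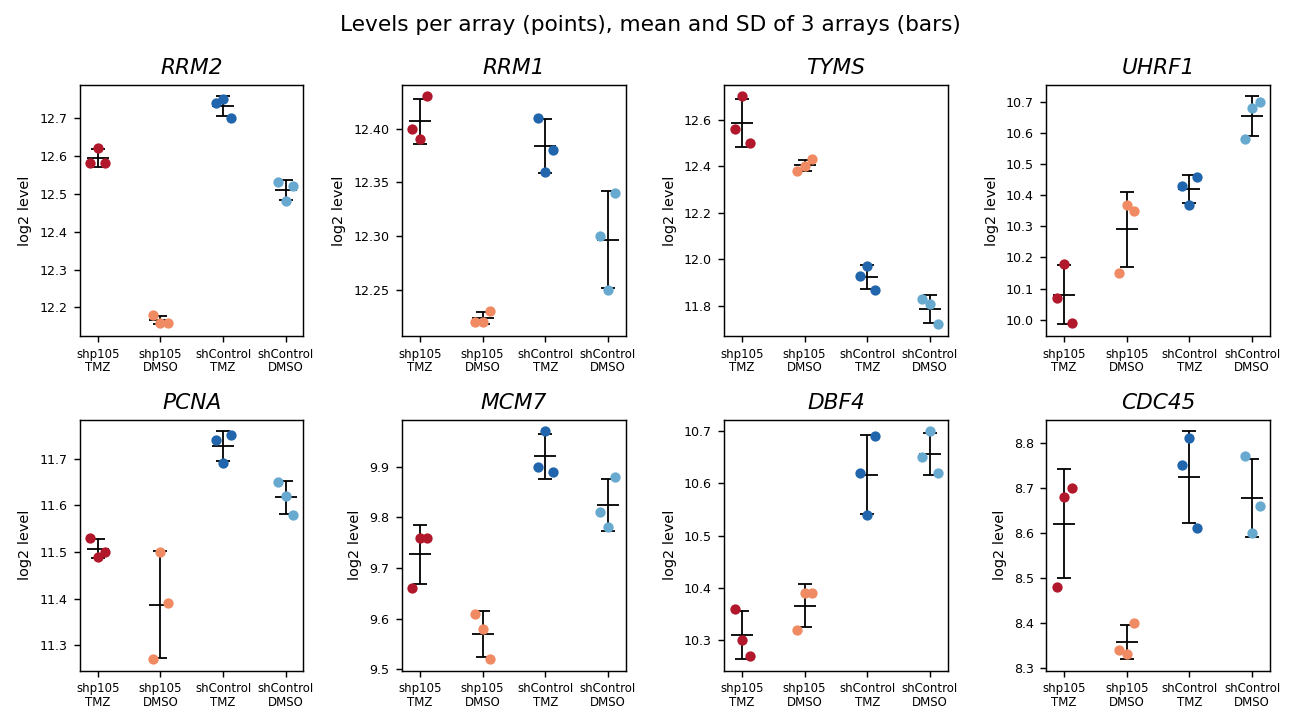
Log2 level of 8 replication genes on each of the 3 arrays of a group (points) with the mean and SD (bars), in shp105 cells with TMZ, shp105 cells with DMSO, shControl cells with TMZ and shControl cells with DMSO; each panel has its own axis, which does not start at 0. RRM2 is lowest in shp105 cells with DMSO at 12.17, TYMS is at 12.38 or more in all shp105 arrays and at 11.97 or less in all shControl arrays, and UHRF1 is lowest in shp105 cells with TMZ.

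For 19 of the 31 genes the array holds more than 1 probe set, 61 in all. Between the lines the probe sets of a gene had the same sign for 16 of these 19 genes under DMSO and 14 under TMZ. For the TMZ response it was 10 of 19 in shp105 cells and 11 of 19 in shControl cells. The other RRM2 probe set, of mean level 12.05, differed between the lines by -0.41 under TMZ and by -0.37 under DMSO, and its TMZ response was 0.23 in shp105 cells and 0.27 in shControl cells. It did not have the smaller line difference under TMZ that the brighter probe set had.

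The other probe sets of a gene gave larger line differences for some genes and smaller ones for others. Under DMSO, CDT1 was at -0.58 by its dimmer probe set and -0.34 by the brighter one, MCM7 at -0.41 and -0.25, and RRM1 at -0.32 and -0.07. RFC3 was at -0.62 and -0.24 by its 2 dimmer probe sets and -0.13 by the brightest. TYMS was higher by 0.48 in its second probe set under DMSO, while the third, at a mean level of 3.75, gave 0.01. Smaller under DMSO were MCM10, at -0.22 and -0.16 by its dimmer probe sets and -0.29 by the brightest, and CLSPN, at -0.24, -0.07 and -0.04 against -0.33. The CLSPN call under DMSO was lost with probe sets averaged. CHEK1 was at -0.16 by its second probe set and 0.11 by the brightest. CDC6 was at 0.26 by its dimmer probe set, the same sign as the brighter one. Under TMZ that dimmer CDC6 probe set was at 0.29 (limma, adjusted p = 0.0332 over all probe sets) and the brighter one at 0.15. CCNE2 had opposite signs after TMZ: its dimmer probe set was at 0.11 in shp105 cells and 0.07 in shControl cells, while the brighter one was at -0.24 in shp105 cells and -0.16 in shControl cells. With all probe sets of a gene averaged into its value, 17 of the 31 genes were called lower under DMSO and 11 under TMZ. The share of all genes called in that setting is not given here, so these counts are not compared with the array.

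**Figure D5:**
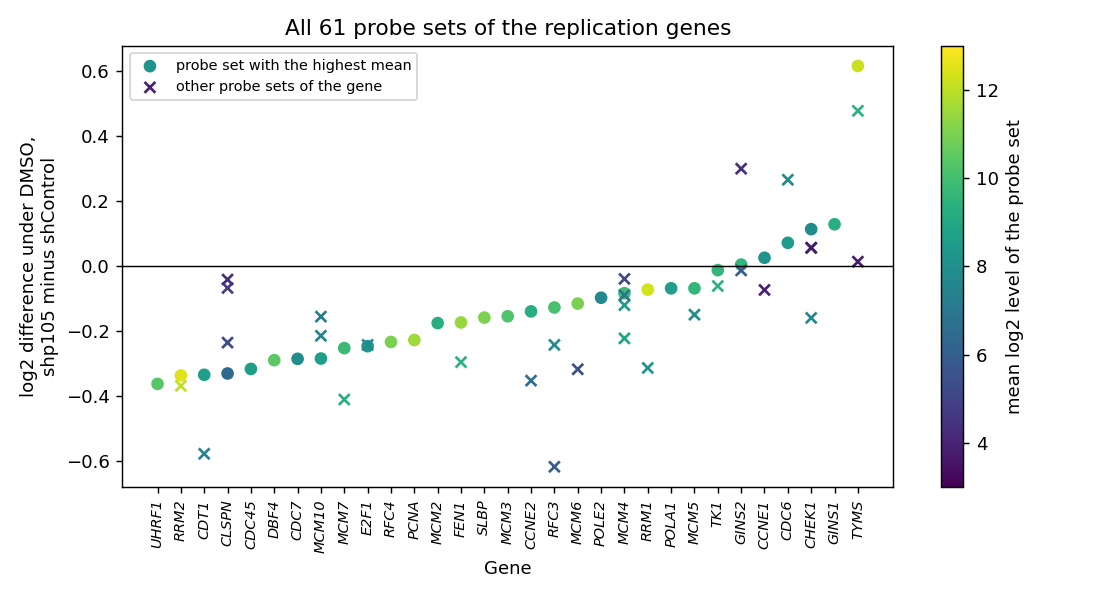
Log2 difference under DMSO, shp105 minus shControl, of all 61 probe sets of the 31 genes, with genes ordered by their brightest probe set (circles) and other probe sets as crosses. Colour gives the mean log2 level of the probe set. Crosses of CDT1, MCM7, RFC3 and RRM1 lie below their circles, and the third TYMS probe set, at a level of 3.75, lies near 0.

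Of 73 other genes of replication and its control, 71 were analysed here. Of all genes, 11% were lower in shp105 than in shControl cells under TMZ and 11.6% under DMSO, and 10.1% and 8.34% were higher. Of the 71, 11 were lower and 5 higher under TMZ (median -0.04), so 15.5% were called lower. Under DMSO 16 were lower and 3 higher (median -0.05), so 22.5% were called lower. Under DMSO the 4 with the smallest p were E2F8, a repressor of the E2F family (-0.73, SE 0.08), CDCA7, a partner of the chromatin remodeller HELLS (-0.68, SE 0.08), the primase subunit PRIM1 (-0.42, SE 0.05) and CDKN1A (-0.40, SE 0.06). Under TMZ they were CDCA7 (-0.97, SE 0.08), the GINS subunit GINS4 (-0.59, SE 0.07), DSCC1, part of the clamp loader of sister chromatid cohesion, which was higher (0.37, SE 0.05), and RPA2, a subunit of the single-strand binding complex (-0.38, SE 0.06). Adjusted p values of these genes ran from 5.30e-06 to 0.000636. CDKN1A under TMZ was at -0.36 (adjusted p = 0.000687). The inhibitor was thus lower in shp105 cells under both treatments.

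After TMZ, 0.647% of all genes were higher in shp105 cells and 0.253% in shControl cells, and 0.217% and 0.116% were lower. Of the 71, 3 (4.23%) were higher in shp105 cells and 2 (2.82%) in shControl cells, and 0 were lower in either line. Beside CDKN1A these were DSCC1 (0.35, SE 0.05, adjusted p = 0.0125) and PRIM1 (0.31, SE 0.05, adjusted p = 0.0209) in shp105 cells, and GINS4 in shControl cells (0.49, SE 0.07, adjusted p = 0.0106). GINS4 was at 8.32, 8.30 and 8.31 in shControl cells with TMZ, against 7.87, 7.76 and 7.82 with DMSO, with no overlap. PRIM1 was at 9.61, 9.62 and 9.60 in shp105 cells with TMZ, against 9.28, 9.30 and 9.33 with DMSO, also with no overlap.

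Across the 12 arrays the 31 genes did not move as one block. The 465 pairs of genes had a median Pearson correlation of 0.27, from -0.95 to 0.94, and after removing group means a median of 0.10, from -0.92 to 0.95. All pairs share the same 12 arrays and their scaling, so these values are a description.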

How the data were processed

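RNA of 12 samples was hybridised to 1-colour Affymetrix arrays. The deposited log2 values were made by the authors with RMA in Affymetrix Power Tools, per the submitters' processing notes; the sources used here give no versions or filters. Of 54675 probe sets 41097 had 1 gene symbol, 1801 several and 11777 none. Symbols were updated by Entrez ID through RefSeq, and 54 were not found there. Each of 19775 genes was read by its single-symbol probe set of highest mean. The 4 group means were fitted with limma 3.58.1 (lmFit, eBayes) in R 4.3.3, with Benjamini-Hochberg adjustment over all genes. The code was tested on simulated data. The members and lists were chosen with earlier results of these data known. All 31 members are accounted for, and those past an unadjusted p of 0.05 or the adjusted threshold are named with values, with 4 other replication genes of smallest p per line comparison. A few listed genes are not analysed here. The number of arrays limits precision. Alternatives covered probe set choice, dim genes, scaling, eBayes options, the replicate number, the spike-in level, the groups fitted, the threshold and each array left out.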

Additional observations from a re-analysis of the deposited data

How the results depend on the processing

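Genes called for the TMZ response in shControl cells numbered 73, and 45 with averaged probe sets, 291 without dim genes, 358 with trend and robust fitting, 30 with the replicate block, 0 with the spike-in covariate, 19 with only the compared groups, 15 at a threshold of 0.01 and 665 averaged over both lines. Replication genes higher there numbered 0, and 1 without dim genes, with quantile normalization or with trend and robust fitting, and 2 averaged. Lower ones numbered 0, and 2 with trend and robust fitting and 1 averaged. In shp105 cells the 171 genes became 904 without dim genes, 937 with trend and robust fitting, 84 with the replicate block, 13 with the covariate, 2 with only the compared groups, 39 at 0.01 and 665 averaged. The 1 higher replication gene became 2 with the mean of probe sets, 4 without dim genes, 6 with trend and robust fitting, 0 with the covariate, 0 with only the compared groups and 2 averaged, and the 0 lower became 1 without dim genes, 2 with trend and robust fitting and 1 averaged. Between the lines under TMZ the 9 lower replication genes became 0 with the covariate, 4 with only the compared groups, 3 at 0.01 and 17 averaged, the 1 higher became 2 without dim genes or with quantile normalization, and the 4166 genes became 1045 with the covariate and 2566 at 0.01. Under DMSO the 14 lower became 9 with centred arrays, 0 with the covariate and 5 at 0.01, the 1 higher became 0 with the covariate, and the 3937 genes became 523 with the covariate, 2439 at 0.01 and 5959 averaged. For the difference of responses 0 genes became 8 without dim genes and 12 with trend and robust fitting. Signs turned for MCM2 under TMZ with the covariate (0.004, adjusted p = 0.993) and CCNE1 under TMZ with the mean of probe sets (-0.001). The cause was not tested. Leaving out 1 array gave 16 to 76 genes for TMZ in shControl cells, 49 to 188 in shp105 cells, 3219 to 4059 between the lines under TMZ and 3042 to 4171 under DMSO, with 4 to 7 lower replication genes under TMZ and 7 to 14 under DMSO, and 1 to 3 higher under TMZ (3 without shp105_TMZ replicate 2).

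Deviations of same-numbered arrays of different groups had correlations of -0.14 to 0.12, and those of different-numbered arrays -0.2 to 0.26. No shared effect of the replicate number was thus visible. The labels do not say whether same-numbered arrays were handled together. The replicate block gave 6 lower replication genes under TMZ and 11 under DMSO. The share of all genes called between the lines with that block is not given here, so these counts are not compared with the array.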
